A study of Homo sapiens with 12 samples.

Results

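Aldo-keto reductases are NADPH-dependent enzymes that reduce aldehydes and ketones to alcohols, and their substrates include sugars, lipid aldehydes, retinal, prostaglandins and steroid hormones. Several of them (AKR1B10 and the AKR1C genes) are known targets of NRF2, the transcription factor that KEAP1 holds in check until oxidative or electrophilic stress releases it. AKR1B10 is known for its high level in many hepatocellular carcinomas. The 8 genes described here are AKR1B10, AKR1B15 and AKR1B1 of the aldose reductase subfamily, AKR1C1, AKR1C2 and AKR1C3 of the hydroxysteroid dehydrogenase subfamily, and AKR1A1 and AKR7A2. They are 8 of 28704 genes listed in either of 2 count tables, and each of the 8 is listed in both. They were chosen by their measured responses to an siRNA and by their control levels in these same libraries, so their levels and changes are given as a description, without p-values.

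RNA-seq counts per gene came from 12 libraries of human cells, labelled as hepatoma lines, in 4 groups of 3. Cells labelled Hep-3B or Huh-7 received either a negative-control siRNA or an siRNA against ARD1 (siARD1), and nothing else was given to any group per the labels. NAA10, formerly called ARD1, is the enzyme subunit of a complex that acetylates protein N termini, and the title of the series places it in glutathione synthesis and in escape from ferroptosis. The sources used here give neither dose, duration nor sequence of the siRNA. Nothing in the labels states that replicates came from separate cultures, so p-values and SDs measure the spread between these libraries, which may be technical. In these bulk samples, fewer cells of a type and less RNA per cell cannot be told apart.

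Library totals ran from 17327615 to 25960237 counts. NAA10 fell from 58.6 ± 6.21 to 14.5 ± 2.64 CPM (counts scaled to library size with TMM factors over all 12 libraries; SD, n = 3) in the libraries labelled Hep-3B (log2 fold change -2.01, SE 0.12, edgeR adjusted p = 1.37e-07). In Huh-7 it fell from 164.5 ± 23.3 to 10.3 ± 1.75 CPM (log2 fold change -3.98, SE 0.13, edgeR adjusted p = 1.66e-08). Liver-cell markers set the lines apart: 8 hepatocyte markers summed to 31678 to 33231 CPM in the Huh-7 controls and 24320 to 28361 CPM after siARD1, but to 382 to 471 and 181 to 190 CPM in the libraries labelled Hep-3B, where TTR was at 0 in all 3 siARD1 libraries. The part of this marker change in the values below was not tested. ALB and AFP, which Hep-3B cells are known to secrete, were at 0.598 to 6.56 and 0.276 to 2.09 CPM in the 6 libraries labelled Hep-3B, so these are called by their label throughout. FGB (143 to 389 CPM) made up most of their hepatocyte sum. Their summed fibroblast, endothelial and leukocyte markers were at most 185, 80.8 and 2.02 CPM, the first mostly LUM (up to 154) and the second mostly KDR (up to 61.0). In Huh-7 the fibroblast, endothelial and leukocyte sums were at most 39.5, 13.5 and 98.3 CPM. The last was almost all LYZ (up to 98.1 CPM), a gene not analysed here in the other table, while the pan-leukocyte marker PTPRC stayed at or under 0.43 CPM. These sums are not over the same markers: 5 of 6, 5 of 5 and 3 of 5 were used in the libraries labelled Hep-3B. In Huh-7 6 of 6, 4 of 5 and 4 of 5 were used. In every comparison of the 2 lines, line and preparation cannot be told apart.

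The members lie on 3 chromosomes (GENCODE v29, GRCh38). AKR1B10 (ENSG00000198074, chr7:134527592-134541408, plus strand) and AKR1B15 (ENSG00000227471, chr7:134549136-134579875, plus strand) lie 7727 bases apart, and AKR1B1 (ENSG00000085662, chr7:134442350-134459284, minus strand) is next to them. AKR1C1 (ENSG00000187134, chr10:4963253-4983283, plus strand) and AKR1C2 (ENSG00000151632, chr10:4987400-5018031, minus strand) are 4116 bases apart and point at each other tail to tail. AKR1C3 (ENSG00000196139, chr10:5035354-5107686, plus strand) follows after 17322 bases. AKR1A1 (ENSG00000117448, chr1:45550543-45570049, plus strand) and AKR7A2 (ENSG00000053371, chr1:19303965-19312146, minus strand) are far apart on chromosome 1. Beside AKR7A2, on the same strand, are its relatives AKR7A3 (chr1:19282558-19289250) and AKR7L (chr1:19265982-19274194). In GENCODE v29 no exon of the 8 genes overlapped an exon of another gene on either strand. The release behind the counts is not named and may differ, which also bears on the gene lengths used below.

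How far counts can be assigned to a single relative depends on how much sequence the relatives share. The coding sequences of AKR1C1 and AKR1C2 are identical at 98.0% of 972 aligned bases, against 91.5% for AKR1C1 and AKR1C3. For the pair AKR1B10 and AKR1B15 the figure is 94.2%, and for AKR1B10 and AKR1B1 it is 77.5%. The stretches printed here run over 60 coding bases without a gap in the alignment to either relative shown. Among such stretches, AKR1C2 differs most from AKR1C1 there, and AKR1B15 most from AKR1B10. The reason to show them is that reads there can be told apart. They come from GENCODE v29 transcripts, read 5′ to 3′ on the coding strand, and capitals mark bases that differ from the first gene of each set. AKR1C2 differs from AKR1C1 at 10 of the 60 bases and AKR1C3 at 7. AKR1B15 differs from AKR1B10 at 7 and AKR1B1 at 13.
AKR1C1: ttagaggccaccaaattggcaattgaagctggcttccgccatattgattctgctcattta
AKR1C2: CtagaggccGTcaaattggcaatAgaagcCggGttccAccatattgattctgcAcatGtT
AKR1C3: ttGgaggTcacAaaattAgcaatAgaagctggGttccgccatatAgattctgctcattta
AKR1B10: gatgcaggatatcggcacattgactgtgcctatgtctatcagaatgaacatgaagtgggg
AKR1B15: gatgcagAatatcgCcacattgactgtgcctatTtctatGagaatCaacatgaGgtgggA
AKR1B1: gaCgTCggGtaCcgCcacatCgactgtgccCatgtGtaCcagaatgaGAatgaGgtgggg

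Over whole transcripts, 32.9% of the windows of 100 bases in AKR1C2 also occur exactly in a transcript of another gene, and 31.1% occur in AKR1C1. In AKR1C1 17.4% of such windows are shared, in AKR1C3 4.98%, in AKR1B10 2.01%, in AKR1B15 1.12% and in AKR7A2 0.396%. AKR1B1 and AKR1A1 share 0 of their 1310 and 1719 windows. AKR1C1 and AKR1C2 are the pair that shares most, at windows of 50, 100 and 150 bases alike, so their counts are the most uncertain by this measure. The other members depend more on window length. At 50 bases 17.7% of windows are shared in AKR1B10 (11.6% with AKR1B15), 12.1% in AKR1C3 and 11.6% in AKR1B15. At 150 bases AKR1B10 and AKR1B15 share 0, and AKR1C3 shares 1.33%. The effect of this sharing on their counts was not tested. The sources used here do not say how reads that fit 2 genes were counted.

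**Figure D1:**
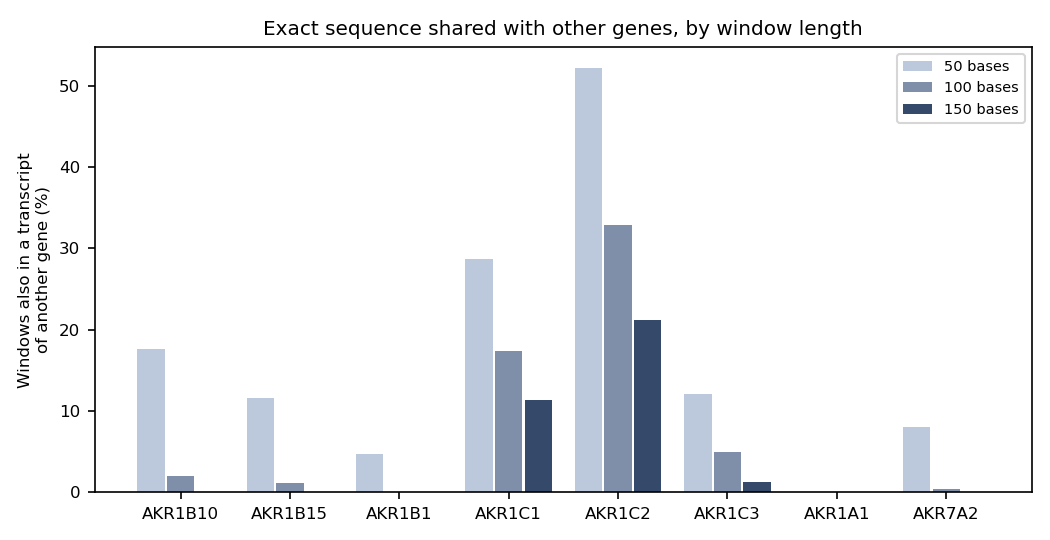
Percent of exact windows of 50, 100 and 150 bases in 1 transcript of each gene (vertical axis, starting at 0) that also occur in a transcript of another GENCODE v29 gene. AKR1C2 stands highest at every window length (32.9% at 100 bases), and AKR1A1 shares none at any of the 3.

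The sequence upstream of the RefSeq starts of AKR1C1 and AKR1C2 is nearly the same as well, and is shown to set the pair beside AKR1C3. Its part in the levels was not tested. RefSeq promoter windows (GRCh38.p14, 250 bases before the annotated start) were found for 6 of the 8 members, and AKR1B10 and AKR1B15 had no entry in the table used. The AKR1C1 and AKR1C2 windows match at 245 of 246 aligned bases (99.6%), whereas AKR1C1 and the first AKR1C3 window match at 76.8% of 241. A second AKR1C3 window (chr10:5094164-5094413, plus strand) was not compared. GENCODE exons cover 162 of the 250 bases for AKR1C1, 166 for AKR1C2 and 0 in the first AKR1C3 window. Printed here are the bases of each window farthest from the start that no GENCODE exon covers, 88 for AKR1C1 (chr10:4963165-4963252, plus strand) and 84 for AKR1C2 (chr10:5004024-5004107, minus strand), with the first 88 of AKR1C3 (chr10:5048531-5048618, plus strand). Capitals mark aligned bases that differ from AKR1C1, of which AKR1C2 has 0 and AKR1C3 has 17.
AKR1C1: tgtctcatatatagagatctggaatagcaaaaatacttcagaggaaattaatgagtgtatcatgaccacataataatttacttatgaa
AKR1C2: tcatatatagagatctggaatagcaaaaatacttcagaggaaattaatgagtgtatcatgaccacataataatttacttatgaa
AKR1C3: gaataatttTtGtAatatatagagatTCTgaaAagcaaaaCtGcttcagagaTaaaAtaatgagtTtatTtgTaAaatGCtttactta

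The antioxidant response element, the DNA motif NRF2 binds, was searched as TGACNNNGC on both strands, and 10.9% of 35116 windows of the same length hold it. The 250-base windows of AKR1C1, AKR1C2, AKR1C3, AKR1B1 and AKR1A1 hold 0 matches, and that of AKR7A2 holds 3. The related AP-1 motif TGANTCA, present in 6.57% of windows, was found in 0 windows of the 6 members. Binding was not measured, and these letters say nothing of elements farther away.

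In cells given the control siRNA, 6 of the 8 genes were called lower in Huh-7 than in the libraries labelled Hep-3B, and 1 was called higher. A call is an edgeR quasi-likelihood adjusted p under 0.05, and across all 16524 genes tested 40.1% were called lower and 41.3% higher in this comparison. As the list was chosen on these levels, nothing is read from the count. AKR1B15, with 0 counts in the Huh-7 controls, passed the filter on low counts only through the controls labelled Hep-3B. The Huh-7 and Hep-3B-labelled controls of this comparison are also the controls of the siARD1 comparisons. The 8 genes together took 0.538% ± 0.0108 (SD, n = 3) of all counts in the controls labelled Hep-3B and 0.0446% ± 0.000570 in the Huh-7 controls.

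Per kilobase of gene model, the order in the controls labelled Hep-3B began with AKR1C1 at 270.1 ± 9.98 CPM per kb (SD, n = 3), AKR1C3 at 243.5 ± 2.81, AKR1C2 at 207.7 ± 6.74 and AKR1B10 at 198.6 ± 13.4. AKR1C2 and AKR1B10 overlapped between libraries. AKR1B1 followed at 132.9 ± 1.18 CPM per kb, then AKR1A1 at 18.4 ± 1.45, AKR7A2 at 12.4 ± 0.480 and AKR1B15 at 9.80 ± 0.896. In the Huh-7 controls AKR1C1 was again first, at 23.8 ± 0.336 CPM per kb, but AKR1A1 (20.1 ± 0.596) and AKR7A2 (16.9 ± 1.22) came next. AKR1C2 followed there at 14.0 ± 0.243 CPM per kb, AKR1B1 stood at 5.57 ± 0.395, AKR1C3 at 1.24 ± 0.0175 and AKR1B10 at 0.0869 ± 0.112. AKR1B15, at 0, came last. The neighbours in that Huh-7 order did not overlap between libraries, except that AKR1B10 was also at 0 in 1 library. After siARD1 the Huh-7 order began with AKR1C2 at 68.9 ± 3.98 and AKR1C1 at 63.3 ± 6.83 CPM per kb, which overlapped. AKR7A2 (18.4 ± 1.59) and AKR1A1 (16.7 ± 0.777) also overlapped, as did AKR1B10 (8.23 ± 0.560) and AKR1B1 (7.94 ± 1.25). With coding length in place of gene model length these orders change: AKR1C2 comes 2nd in the controls of both lines, AKR1B10 5th and AKR7A2 last in the controls labelled Hep-3B, and AKR1C1 comes 1st in Huh-7 after siARD1.

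After siARD1, 1 of the 8 genes was called higher in the libraries labelled Hep-3B (AKR7A2) and 4 lower (AKR1B10, AKR1B15, AKR1B1 and AKR1C2), where 16.8% of all 15762 genes tested were called higher and 15.3% lower. The 3 others were not called. In Huh-7, 4 of the 7 tested genes were called higher (AKR1B10, AKR1B1, AKR1C1 and AKR1C2) and 1 lower (AKR1A1), where 21.2% and 18.9% of 15919 genes were. AKR1B15 was below the filter on low counts there. With upper-quartile scaling 39.7% of all calls in Huh-7 were to higher levels, against 52.9% here, and no member's call in Huh-7 changed. The control and siARD1 libraries did not overlap for 6 of 8 genes in the libraries labelled Hep-3B (45% of all genes) and for 5 of 7 in Huh-7 (49.7%). Because these contrasts chose the list, nothing is read from the counts. The share of all counts held by the 8 genes went to 0.483% ± 0.0177 in the libraries labelled Hep-3B and to 0.120% ± 0.0114 in Huh-7.

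**Figure D2:**
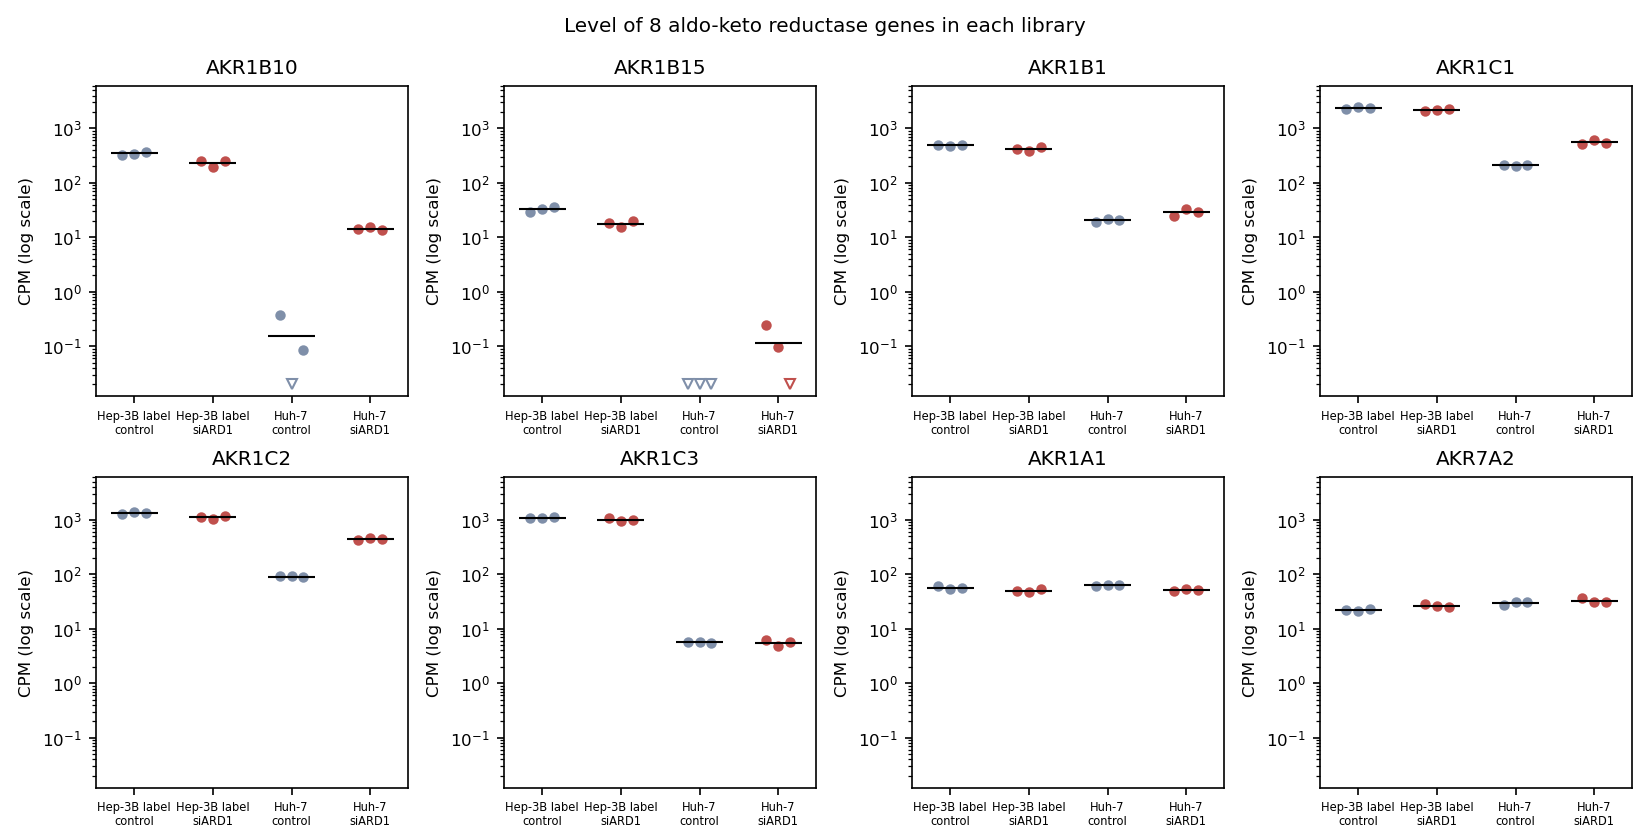
CPM (TMM-scaled, logarithmic vertical axis) of each gene in every library, by line and siRNA; points are libraries, black lines are group means, and open triangles at the foot stand for libraries with 0 counts. AKR1B10 goes from 0 to 0.371 CPM in the Huh-7 controls to 13.4 to 15.3 CPM after siARD1, and lies between 198 and 373 CPM in the libraries labelled Hep-3B.

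AKR1B10, which reduces retinal and lipid aldehydes, was near the limit of detection in the Huh-7 controls, at 7, 0 and 2 counts (0.371, 0 and 0.0836 CPM). After siARD1 it had 298, 316 and 273 counts (14.4, 15.3 and 13.4 CPM). Every treated library thus stood far above every control. The fitted log2 fold change was 6.67 (SE 0.31). That SE, taken from the F statistic, is too small for so few control counts. Its approximate 95% interval is narrower than the counting interval given next. The pooled counts give a ratio of 105 (95% exact binomial interval 55.3 to 231, counting error only). Without control replicate 1, which holds 7 of the 9 control counts, the ratio is 339 (93.5 to 2802) and the fitted change is 8.24.

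The control level of AKR1B10 in Huh-7 was set beside that of other genes abundant in the libraries labelled Hep-3B. Among 28 other genes with at least 100 CPM in the controls labelled Hep-3B and levels at least 1000-fold lower in Huh-7, the median Huh-7 level was 0.0315% to 0.0487% of the source in the 3 Huh-7 controls. By their choice, the mean share of each of these genes over the 3 controls cannot exceed 0.1%. AKR1B10 itself was at 0.107%, 0% and 0.0241% of the source in control replicates 1, 2 and 3, where the median share would give 0.169, 0.114 and 0.109 CPM. Control replicate 1 was thus above that level and the other 2 below it. The siARD1 libraries of Huh-7 held AKR1B10 at 3.86% to 4.42% of the source level, against a median share of 0.0319% to 0.0441% for the 28 genes there. The part of RNA or reads from other libraries in the control counts was not tested.

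AKR1B10 was abundant in the libraries labelled Hep-3B and its change had the opposite sign there. Its controls held 328, 339 and 373 CPM and its siARD1 libraries 254, 198 and 256 CPM. The groups did not overlap, at a log2 fold change of -0.55 (SE 0.09). Between the 2 controls, the pooled counts put AKR1B10 2539-fold higher in the libraries labelled Hep-3B than in Huh-7 (95% exact binomial interval 1337 to 5554), or 8164-fold (2260 to 67414) without the same Huh-7 control.

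AKR1B15 encodes a close relative of AKR1B10 that is known to act on steroid ketones. It had 29.4, 32.9 and 35.3 CPM in the controls labelled Hep-3B and 18.4, 15.5 and 19.9 CPM after siARD1, without overlap, at a log2 fold change of -0.86 (SE 0.11). Of the 8 genes this was the most negative change in that line. In Huh-7 it had 0 counts in all 3 controls, which allows up to 3 counts over the group (0.0454 CPM), and 5, 2 and 0 counts after siARD1. No fold is given for siARD1 in Huh-7, since 5 of the 7 counts were in replicate 1 and the other 2 are under that limit. Against the same limit the control level labelled Hep-3B was at least 714-fold higher than in the Huh-7 controls. AKR1B15 had 9.40% ± 0.384 as many counts as AKR1B10 in the controls labelled Hep-3B, 7.61% ± 0.309 after siARD1 there, and 0.770% ± 0.847 in the treated Huh-7 libraries. The last ratio rests on 7 AKR1B15 counts, and the part of reads shared with AKR1B10 was not tested.

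AKR1B1, aldose reductase, makes sorbitol from glucose in the polyol pathway. Its control level labelled Hep-3B was 486, 482 and 491 CPM, and 427, 386 and 465 CPM after siARD1. The groups were separate but close, at a log2 fold change of -0.19 (SE 0.07). That call was lost when any 1 of 4 libraries was left out (control replicates 2 and 3, siARD1 replicates 1 and 2), with log2 fold changes from -0.26 to -0.12 over the 6 omissions, and in 1 fit of both lines (-0.19). In Huh-7 AKR1B1 went from 18.8, 21.6 and 20.8 CPM to 24.6, 33.7 and 28.8 CPM, a log2 fold change of 0.53 (SE 0.10), and kept its call in all 6 omissions.

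The makeup of the AKR1B counts shifted with these values. In the Huh-7 controls AKR1B1 held 99.2% ± 1.02 (SD, n = 3) of the counts of the 3 AKR1B genes. After siARD1 AKR1B1 held 66.6% ± 3.32 and AKR1B10 33.2% ± 3.03. The AKR1B10 share in the libraries labelled Hep-3B was 40.0% ± 1.33 in controls and 34.6% ± 1.65 after siARD1, and the AKR1B15 share 3.76% ± 0.238 and 2.63% ± 0.0515. Per length of gene model AKR1B10 was the larger part in the controls labelled Hep-3B, at 58.2% ± 1.34 of the subfamily, and reached 51.0% ± 3.35 in Huh-7 after siARD1.

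**Figure D3:**
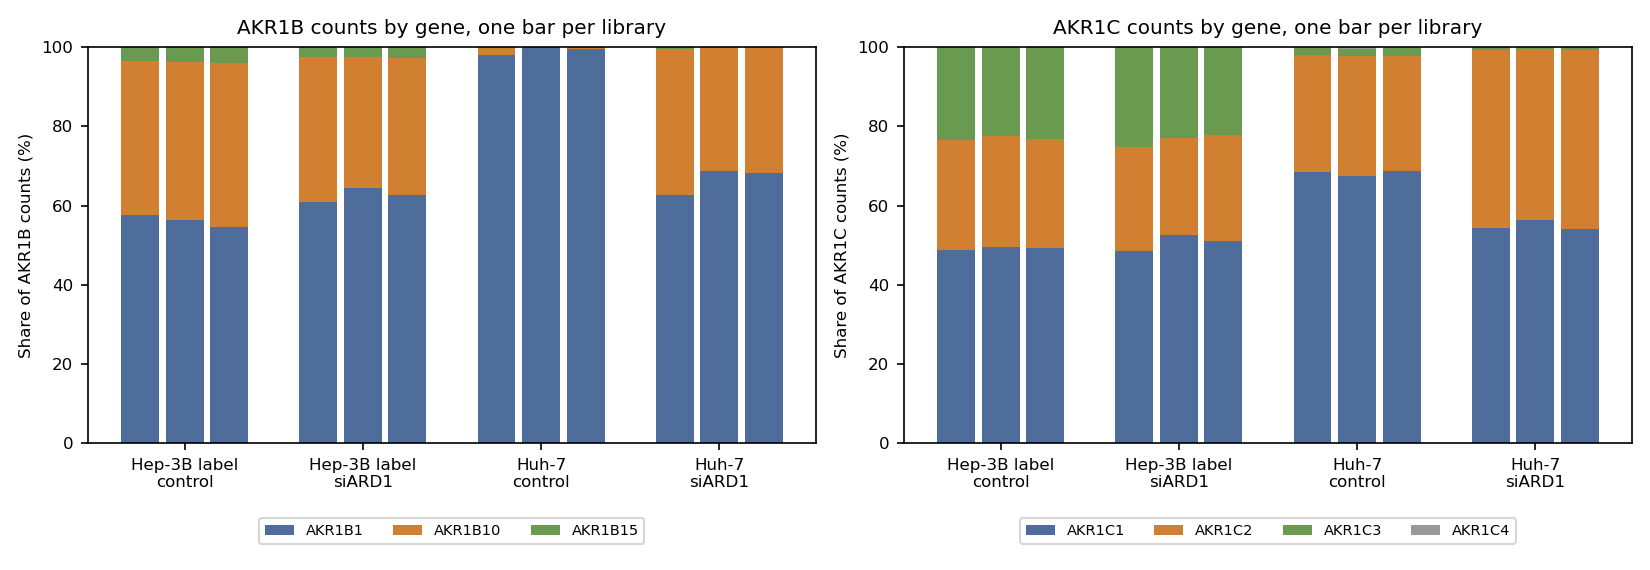
Share of each gene in the summed counts of the AKR1B genes (left) and the AKR1C genes (right), in percent from 0 to 100, with 1 stacked bar per library in groups of 3. In Huh-7 siARD1 libraries AKR1B10 holds 31.2% to 36.7% of AKR1B counts and AKR1C2 42.9% to 45.1% of AKR1C counts, both above all Huh-7 controls.

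AKR1C1, a steroid dehydrogenase that converts progesterone to a less active alcohol, had the most counts of the 8 genes in all 12 libraries. In Huh-7 it went from 211, 206 and 209 CPM in controls to 512, 623 and 528 CPM after siARD1. The groups were far apart, at a log2 fold change of 1.43 (SE 0.06). It stood in the libraries labelled Hep-3B at 2277, 2452 and 2374 CPM in controls and at 2094, 2200 and 2300 CPM after siARD1. These overlapped, the log2 fold change was -0.11 (SE 0.06, approximate 95% interval -0.21 to 0.0024), and the gene was not called.

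AKR1C2, which inactivates dihydrotestosterone, went in Huh-7 from 91.4, 91.7 and 88.9 CPM to 423, 474 and 439 CPM. Its log2 fold change was 2.31 (SE 0.06). The libraries labelled Hep-3B held 1302, 1388 and 1335 CPM in controls and 1142, 1021 and 1199 CPM after siARD1. The groups did not overlap, at a log2 fold change of -0.26 (SE 0.06), called in all 6 omissions of a library.

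The fitted change of AKR1C2 was farther from 0 than that of AKR1C1 in both lines, with opposite signs. AKR1C2 counts were 43.2%, 44.6% and 42.6% of those of AKR1C1 in the Huh-7 controls and 82.6%, 76.0% and 83.2% after siARD1. The same ratio in the libraries labelled Hep-3B was 57.2%, 56.6% and 56.3% in controls and 54.5%, 46.4% and 52.1% after siARD1. Neither pair of groups overlapped. The 2 genes share many exact windows, so an unknown part of each count may belong to the other, and the true ratio of the 2 levels was not tested. With AKR1C1 to AKR1C4 summed into 1 feature, the log2 fold change was 1.74 in Huh-7 and -0.15 in the libraries labelled Hep-3B, both called.

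AKR1C3 makes testosterone from androstenedione and also forms a prostaglandin F. In Huh-7 it was low and did not follow its neighbours: controls held 5.62, 5.72 and 5.56 CPM and siARD1 libraries 6.13, 4.80 and 5.63 CPM. The groups overlapped, at a log2 fold change of -0.01 (SE 0.15, approximate 95% interval -0.30 to 0.28). Its counts went from 2.7% ± 0.0691 to 1.01% ± 0.218 of those of AKR1C1. AKR1C3 had, in the libraries labelled Hep-3B, 1091, 1104 and 1116 CPM in controls and 1088, 956 and 998 CPM after siARD1. All treated libraries were lower, the highest by a narrow margin, and the log2 fold change of -0.12 (SE 0.06) was not called (-0.16 and called with upper-quartile scaling). Its Huh-7 control level was 0.504% to 0.518% of that in the controls labelled Hep-3B. The 28 genes above were chosen with mean shares of at most 0.1%, so they cannot serve as a comparison for AKR1C3. The part of RNA or reads from other libraries in its Huh-7 counts was not tested.

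AKR1A1, aldehyde reductase, acts in the glucuronate pathway. It was the 1 member whose control level was not called different between the lines, at a log2 difference of 0.13 (SE 0.07, Huh-7 minus the libraries labelled Hep-3B). Huh-7 controls had 60.5, 63.2 and 64.1 CPM and siARD1 libraries 49.9, 54.7 and 51.7 CPM. These did not overlap, at a log2 fold change of -0.25 (SE 0.06), called in all 6 omissions. Values in the libraries labelled Hep-3B were 62.1, 53.2 and 56.6 CPM in controls and 49.7, 48.0 and 53.8 CPM after siARD1, which overlapped. The log2 fold change of -0.18 (SE 0.08) was not called (-0.22 and called with upper-quartile scaling).

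AKR7A2 reduces succinic semialdehyde and aflatoxin aldehydes. It was the 1 member called higher in the Huh-7 controls, by 0.46 (SE 0.09) on the log2 scale. Its level in the libraries labelled Hep-3B was 22.2, 21.1 and 22.8 CPM in controls and 28.0, 26.0 and 25.1 CPM after siARD1, a log2 fold change of 0.26 (SE 0.09). The groups did not overlap, but the call was lost when any 1 library except siARD1 replicate 3 was left out, with log2 fold changes from 0.21 to 0.30 over the 6 omissions, and also with upper-quartile scaling (0.22) or no filter on low counts (0.26). In Huh-7 it had 27.7, 31.2 and 31.7 CPM in controls and 36.1, 30.9 and 31.5 CPM after siARD1. These overlapped, and the log2 fold change of 0.14 (SE 0.08) was not called.

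The difference between the 2 responses was fitted over all 12 libraries as an interaction of line and siRNA. Of the 8 genes, 5 were called higher in Huh-7 than in the libraries labelled Hep-3B and 0 lower. Of all 17122 genes tested 15.2% were called higher, and higher calls were 48.5% of the 5380 calls in either direction. The list was chosen on these contrasts, so nothing is read from the counts. The differences were 7.21 (SE 0.37) for AKR1B10, 2.56 (SE 0.09) for AKR1C2, 1.52 (SE 0.09) for AKR1C1 and 0.70 (SE 0.12) for AKR1B1 on the log2 scale. The SE for AKR1B10 understates the counting error here too, with 9 counts in the Huh-7 controls. Its value was 8.77 without Huh-7 control replicate 1 and 6.61 without Huh-7 control replicate 2. The fifth, AKR1B15, passed the filter on low counts only through the libraries labelled Hep-3B. It rests on 7 counts in Huh-7 and lost its call without siARD1 replicate 1 of Huh-7. For AKR1C3, AKR1A1 and AKR7A2 the differences were 0.09 (SE 0.12), -0.08 (SE 0.10) and -0.14 (SE 0.12).

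**Figure D4:**
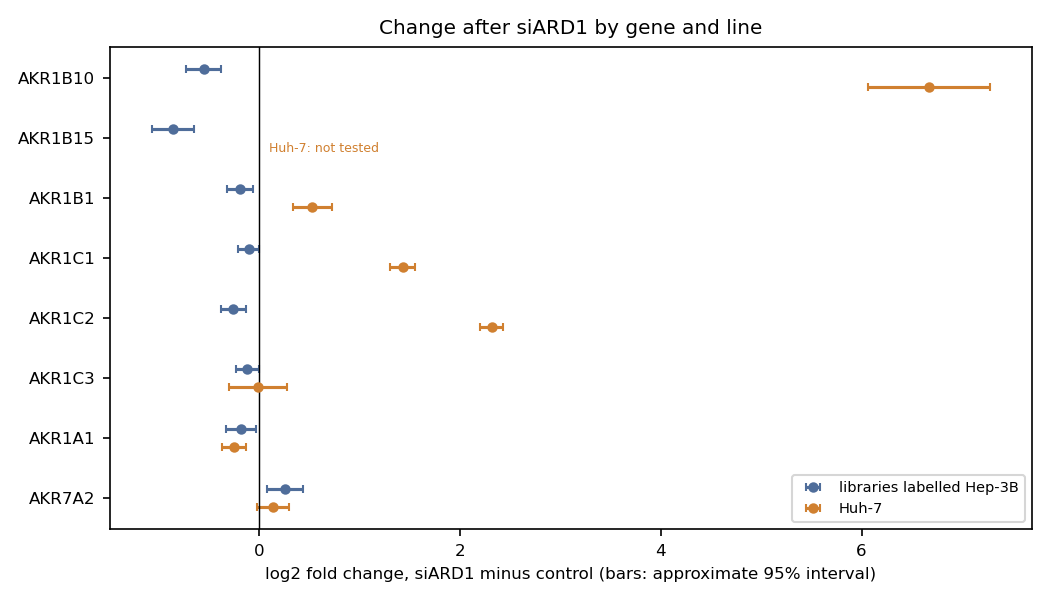
Log2 fold change (siARD1 minus control, horizontal axis) of each gene in the libraries labelled Hep-3B and in Huh-7; points are edgeR estimates and bars are approximate 95% intervals. AKR1B10, AKR1C2, AKR1C1 and AKR1B1 lie right of 0 in Huh-7 (6.67, 2.31, 1.43 and 0.53), and the points labelled Hep-3B lie between -0.86 and 0.26. The Huh-7 bar of AKR1B10 is narrower than its counting error.

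Of the other aldo-keto reductase genes, 10 symbols were looked up, 9 were listed in a table and 8 were tested in the libraries labelled Hep-3B, where 0 passed the edgeR threshold. Across all genes tested 16.8% were called higher and 15.3% lower there, and 21.2% and 18.9% in Huh-7. Several of these relatives had low counts, so nothing is read from the numbers called. In Huh-7 1 of 6 passed: AKR1D1, the steroid reductase of bile acid synthesis, rose from 7.90, 9.50 and 8.07 CPM to 15.2, 10.7 and 15.9 CPM (log2 fold change 0.73, SE 0.14, edgeR adjusted p = 0.000242). The groups did not overlap. In the controls labelled Hep-3B AKR1D1 had 0 counts, so its Huh-7 control level was at least 163-fold higher (against 3 counts over the group). AKR1C4, a liver enzyme of bile acid synthesis beside the other AKR1C genes, stood at 0.90 ± 0.298 and 1.12 ± 0.467 CPM in the libraries labelled Hep-3B and at 1.02 ± 0.369 and 1.26 ± 0.540 CPM in Huh-7 (SD, n = 3), and was not called in either line.

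AKR1E2, at 11.3 ± 0.642 and 12.9 ± 1.86 CPM in the libraries labelled Hep-3B, was not called there and was not analysed here in Huh-7. AKR7A3, a relative of AKR7A2, had 4.71 ± 0.608 and 4.52 ± 0.619 CPM in the libraries labelled Hep-3B and under 0.7 CPM in every Huh-7 library. AKR7L and AKR1C8 had means under 2.4 CPM in all groups. The potassium channel subunits KCNAB1, KCNAB2 and KCNAB3 belong to the same superfamily, and KCNAB2 was the most abundant of them at 55.5 ± 7.03 CPM in the controls labelled Hep-3B. None of these 3 was called after siARD1 in either line.

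Genes of the pathways around the members were taken from lists chosen with earlier results of these data known, so their counts are descriptions beside the medians. The median log2 fold change of all genes tested was -0.01 in both lines. Of all genes tested, 16.8% were called higher and 15.3% lower in the libraries labelled Hep-3B. In Huh-7 these shares were 21.2% and 18.9%, and the counts of every list below are to be set beside them. Of 25 other carbonyl and aldehyde enzymes in the libraries labelled Hep-3B, 4 rose and 9 fell, with a list median of -0.06. There GLO1, which detoxifies methylglyoxal, rose by 0.65 (SE 0.06), and the aldehyde dehydrogenase ALDH3A1 went from 2366 to 1301 CPM (log2 fold change -0.86, SE 0.07, edgeR adjusted p = 1.32e-06). DHRS2 rose from 0.610 to 5.88 CPM (3.28, SE 0.33). Of 24 in Huh-7, 5 rose and 6 fell, with a median of -0.15. The 3 with the smallest p were PTGR1, a reductase of prostaglandins and lipid aldehydes (137 to 291 CPM, log2 fold change 1.11, SE 0.05), the retinal dehydrogenase ALDH1A1 (0.62, SE 0.06) and ALDH4A1 (-0.49, SE 0.05).

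Steroid-converting enzymes other than the members were called higher in 3 and lower in 3 of 17 in the libraries labelled Hep-3B (median 0.02) and in 6 and 1 of 20 in Huh-7 (median -0.0018). HSD3B7 fell by 0.53 (SE 0.07) and HSD17B4 fell by 0.30 (SE 0.06) in the libraries labelled Hep-3B, where STS, the steroid sulfatase, rose by 0.49 (SE 0.10). In Huh-7 HSD17B14 rose from 7.67 to 22.3 CPM (1.56, SE 0.10, edgeR adjusted p = 1.96e-10) and HSD11B2, which inactivates cortisol, rose by 0.28 (SE 0.07). HSD17B11 rose by 0.18 (SE 0.05) and lost its call with upper-quartile scaling (0.12), in 1 fit of both lines (0.16), or when any 1 of 3 libraries was left out (control replicates 2 and 3, siARD1 replicate 1), at 0.15 to 0.17.

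Among retinoid genes, 2 rose and 5 fell of 17 in the libraries labelled Hep-3B (median 0.08), and 3 rose and 8 fell of 15 in Huh-7 (median -0.19). RDH11, a retinal reductase like AKR1B10, fell by 0.50 (SE 0.07) in the libraries labelled Hep-3B, and BCO1, which makes retinal from carotene, fell by 0.64 (SE 0.14). DHRS3 fell by 0.25 (SE 0.07) there and lost its call without control replicate 2 (-0.21). In Huh-7 the retinoic acid hydroxylase CYP26A1 went from 2.09 to 0.649 CPM (log2 fold change -1.66, SE 0.31, edgeR adjusted p = 0.000225), and the receptor RARB from 10.9 to 6.84 CPM (-0.66, SE 0.14).

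In the polyol and glucuronate pathways, 0 rose and 4 fell of 11 in the libraries labelled Hep-3B (median -0.11), and 2 rose and 4 fell of 13 in Huh-7 (median -0.07). UGDH, which makes UDP-glucuronate, fell from 879 to 596 CPM in the former (-0.56, SE 0.05) and rose from 96.0 to 176 CPM in Huh-7 (0.89, SE 0.05). GLYCTK fell by 0.45 (SE 0.08) in the libraries labelled Hep-3B and XYLB, xylulokinase, rose by 0.49 (SE 0.07) in Huh-7. CRYL1, gulonate dehydrogenase, fell in both lines, by 0.43 (SE 0.12) and by 0.77 (SE 0.12), the former not called without control replicate 3 (-0.36).

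Prostaglandin enzymes were called higher in 2 and lower in 5 of 12 in the libraries labelled Hep-3B (median 0.03), and in 2 and 5 of 10 in Huh-7 (median -0.10). PTGIS, prostacyclin synthase, fell in both, from 29.3 to 14.4 CPM (-1.02, SE 0.12) and from 6.41 to 2.96 CPM (-1.09, SE 0.16). The thromboxane synthase TBXAS1 fell by 0.72 (SE 0.10) and PTGDS fell by 1.13 (SE 0.20) in the libraries labelled Hep-3B. HPGD fell by 0.36 (SE 0.07) and PTGES3 fell by 0.27 (SE 0.06) in Huh-7, the latter not called in 1 fit of both lines (-0.28).

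Of 11 genes that control NRF2 or share its DNA sites, 4 rose and 2 fell in the libraries labelled Hep-3B (median 0.03), and 8 rose and 0 fell in Huh-7 (median 0.28). SQSTM1, the autophagy receptor that binds KEAP1, rose in Huh-7 from 227 to 595 CPM (1.41, SE 0.05), NFE2L2, which encodes NRF2, from 194 to 304 CPM (0.66, SE 0.06), and KEAP1 from 76.2 to 112 CPM (0.57, SE 0.06). The repressor BACH2 rose by 1.12 (SE 0.18) from 2.85 CPM in the libraries labelled Hep-3B. NFE2L1 rose by 0.30 (SE 0.08) and KEAP1 fell by 0.51 (SE 0.15) there; NFE2L1 lost its call without siARD1 replicate 2 (0.28), and KEAP1 without control replicate 3 (-0.40) or siARD1 replicate 1 (-0.47).

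Of 31 other NRF2 targets, 4 rose and 12 fell in the libraries labelled Hep-3B (median -0.08), and 18 rose and 2 fell in Huh-7 (median 0.30). GPX2 fell from 167 to 85.3 CPM (-0.97, SE 0.07) and the pentose phosphate enzyme TKT from 4440 to 3116 CPM (-0.51, SE 0.05) in the former. In Huh-7 the thioredoxin reductase TXNRD1 rose from 402 to 741 CPM (0.90, SE 0.06). UGDH, given above, is also on this list.

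Likeness to 2 members was measured as Pearson's r of log2 CPM over the 12 libraries after each line was centred on its own mean, among 9762 genes whose mean over the 6 libraries of each line was at least 5 CPM. It is a description, since all values come from the same libraries and follow mainly the treated Huh-7 libraries. The 5 genes most like AKR1B10 were KLHL21 (r = 0.983), SQSTM1 (0.978), FLNC (0.975), PIEZO1 (0.972) and OSGIN1 (0.972). OSGIN1 went from 13.4 to 58.6 CPM in Huh-7 (log2 fold change 2.16) and from 74.5 to 52.9 CPM in the libraries labelled Hep-3B (-0.49). The 5 most like AKR1C2 were ANXA1 (r = 0.994), SQSTM1 (0.991), PTGR1 (0.988), RBM22 (0.988) and BBOX1-AS1 (0.982). ANXA1, annexin A1, went from 1.24 to 9.60 CPM in Huh-7 (log2 fold change 2.95), and its level labelled Hep-3B was 932 CPM in controls and 843 CPM after siARD1.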

How the data were processed

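Total RNA was extracted with Trizol and depleted of ribosomal RNA before directional library preparation, per the labels' protocols. Reads were trimmed with cutadapt 4.6 and aligned with STAR 2.7.11b to GRCh38, per the submitters' processing notes. The deposited tables, 1 per line, hold whole-number counts per Ensembl gene as the authors made them; the sources used here name no counting tool, release of the annotation or strand setting. All value columns were mapped to a sample.

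The members and all gene lists were chosen with earlier results of these data known. Each line was fitted alone in R 4.3.3 with edgeR 4.0.16: filterByExpr (minimum count 10, minimum total 15), TMM factors, a robust quasi-likelihood F-test and Benjamini-Hochberg adjustment over all genes tested, with a threshold of 0.05. The interaction used all 12 libraries, and control levels used the 6 control libraries. SE was taken as the size of the log2 change divided by the root of the F statistic, and intervals as 1.96 SE to either side. An exact permutation test of 3 against 3 libraries cannot give a p under 0.1, so none is printed. CPM were computed from the counts with TMM factors over all libraries. Named genes were the members, all listed relatives, NAA10, up to 3 called genes per list and line by smallest p, and the 5 genes most like AKR1B10 and AKR1C2 (log2 CPM with a prior count of 2); 2 of the list genes this rule names are not reported here. Genes at 0 counts were set against 3 counts over the group.

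Other settings tried were DESeq2 1.42.0, limma-voom (limma 3.58.1), factors by RLE or by upper quartile, no filter, 1 CPM in 3 libraries, each library left out, a replicate block, both lines in one fit, relatives summed, and other lengths. The fits were tested on simulated data, with the same dispersion for all genes and changes planted only in genes above a count floor. Nothing given here rests on that test. Gene models came from GENCODE v29 and promoter windows from RefSeq (GRCh38.p14), read with Python 3.11.15 and biopython 1.88. Figures used matplotlib 3.10.9. Counts of same-group libraries differed by more than sampling noise (chi-square per degree of freedom 2.43 to 9.85).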

Additional observations from a re-analysis of the deposited data

Results flagged for a closer look

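For 5 of the 8 genes the change after siARD1 in Huh-7 was called higher than that in the libraries labelled Hep-3B by the interaction of line and siRNA in 1 edgeR fit of 12 libraries, as were 15.2% of all 17122 genes. The log2 difference, Huh-7 minus the libraries labelled Hep-3B, was 7.21 for AKR1B10 (6.61 to 8.77 over the omissions of 1 library), 2.56 for AKR1C2, 1.52 for AKR1C1 and 0.70 for AKR1B1. For AKR1B15 it was 5.16 (SE 1.47), a fitted value that depends on the prior count because the Huh-7 controls hold 0 counts. AKR1B15 passed the filter on low counts only through the libraries labelled Hep-3B. The genes were chosen on the same contrasts, so these values are a description and nothing is read from the count. NAA10 fell further in Huh-7, so line and depth of knockdown cannot be told apart in these differences.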

How the results depend on the processing

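Of the calls given for the libraries labelled Hep-3B, that of AKR7A2 was the least stable: the number of members called higher there went from 1 to 0 with upper-quartile factors, with no filter on low counts, and in 5 of the 6 omissions of a library (range 0 to 1). With upper-quartile factors AKR1C3 (-0.16) and AKR1A1 (-0.22) were also called lower there. With AKR1C1 to AKR1C4 summed, the value for AKR1C3 becomes that of the sum, 1.74 in Huh-7 and 1.87 for the difference between lines. The number of members called higher in the Huh-7 controls went from 1 to 2 (AKR1A1 added) with upper-quartile factors, and ran from 1 to 2 over the omissions, 2 without control replicate 1 labelled Hep-3B. Upper-quartile factors moved the share of higher calls in Huh-7 from 52.9% to 39.7% of all called genes and shifted the median difference between the controls by 0.10 (log2).

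Several values near 0 changed sign. Over the omissions of a library, the Huh-7 log2 fold change ran from -0.0913 to 0.0821 for AKR1C3, from -0.0714 to 0.61 for AKR1C4, from -0.36 to 0.40 for AKR7L, from -0.199 to 0.0725 for KCNAB1 and from -0.597 to 0.0582 for KCNAB3. In the libraries labelled Hep-3B it ran from -0.0921 to 0.62 for AKR1C4 and from -0.17 to 0.0303 for AKR7A3. For AKR7L in Huh-7 limma-voom gave 0.10 and the replicate block 0.0273. Where not given above, the cause was not tested. Leaving out 1 Huh-7 siARD1 library (replicate 1) took the difference for AKR1B15 to 4.05, not called.

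Replicate numbers are shared between groups, but same-numbered libraries deviated together with correlations of -0.064 to 0.073 only, so the numbers were not taken to pair them. In the libraries labelled Hep-3B each library correlated best with its own number, in Huh-7 not. With the number as a replicate block the calls went from 5070 to 5598 in the libraries labelled Hep-3B, from 6388 to 6328 in Huh-7 and from 5380 to 5606 for the interaction, and no member's call changed.

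Depth limits AKR1B15 and AKR1B10 in the Huh-7 controls, where 0 and 9 counts were found in all.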
